A study of Homo sapiens with 104 samples.

Results

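Checkpoint signalling, homologous recombination and the Fanconi anaemia pathway were described here through 41 genes, listed by name from these pathways. The rule uses no measured value, but the members and the other gene lists were chosen with earlier results of these data known. The 41 genes comprise 13 checkpoint kinases and the proteins that load or assist them, 7 genes of break signalling and end resection, 12 genes of the BRCA and strand exchange group with its helicases, and 9 Fanconi anaemia genes. A gene was measured by probe sets that carry its symbol alone in the annotation of the array, and 37 of the 41 had such a probe set, out of 19775 genes that had one. RBBP8, BRCA2, FANCA and FANCD2 were not analysed here. All 37 passed the filter on low levels, which used the mean over all kept arrays, and were tested among 13842 genes.

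The kinases ATR and ATM sense stalled replication forks and broken DNA, and pass the signal to CHEK1 and CHEK2, which hold the cell cycle. Homologous recombination repairs breaks and broken forks by copying the sister chromatid: ends are cut back, BRCA1 and PALB2 bring in BRCA2, and strand exchange with the matching sequence follows. Fanconi anaemia proteins form a core complex that marks FANCI and FANCD2 at crosslinks and stalled forks. The methylating agent MNNG leaves a methylated guanine that mismatch repair turns into gaps and broken forks when MGMT has not removed it.

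Transcripts were measured on oligonucleotide arrays in 26 human lymphoblastoid lines, B cells immortalised in culture. There were 24 lines known by a number, called the panel here, and in addition the established line TK6 with its mismatch repair deficient derivative MT1, which stands for that defect as a single line. Each line was examined untreated, in mid log phase, and after MNNG, with 2 arrays for each of the 52 groups. The sources used here give neither dose nor time of exposure. The labels do not tell whether the 2 arrays of a group had separate cultures, and p-values drawn from them then measure only a spread that may be technical.

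A group of 22 MNNG arrays, 21 of the panel and 1 of MT1, was left out because the 2 probe sets read for cre, a control transcript added to samples, lay -6.45 to -5.19 log2 units apart, against 0.082 to 0.83 in the 82 arrays kept. This left 19 panel lines with MNNG arrays (8 lines with both, 11 with 1), all 4 TK6 arrays, and for MT1 2 untreated arrays and 1 MNNG array, whose spread was taken from the other groups. Levels below are log2 of intensity plus 16 after quantile normalisation, on a scale whose lowest value is 5. Changes are differences of such levels with their standard errors from limma, and a gene was called at an adjusted p (Benjamini-Hochberg, over all 13842 genes) below 0.05. Over all genes tested the medians of the MNNG change were 0.037 (panel), -0.029 (TK6) and 0.033 (MT1). With values left as deposited these became 0.13, 0.12 and 0.31, and with arrays centred on their medians -0.021, -0.082 and -0.13. Of 10 B cell markers, 9 were measured and all had a mean level above 6. In both treatments 6 of 8 T and NK cell markers, 6 of 8 myeloid markers and 6 of 9 fibroblast and epithelial markers had a mean below 6, the T cell genes CD3E, CD3G and CD2 among them. In TK6 the B cell list had 2 markers that rose with MNNG and 4 that fell, the myeloid marker ITGAM rose by 2.27 ± 0.16, and NKG7 (-1.16 ± 0.13), GNLY, COL1A2 and CDH1 fell. Untreated MT1 had less MS4A1 than TK6 (-4.80 ± 0.060) and was lower in 3 other B cell markers. The part of these genes in the results below was not tested.

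TK6 gave the largest changes. Their standard errors used a spread estimated over all kept arrays of all groups, the panel lines included. Of the 37 genes, 16 rose and 4 fell with MNNG, against 21.6% of all genes that rose and 19.5% that fell. The median change of the 37 was 0.28, where that of all genes was -0.029. With values as deposited 13 rose and 1 fell. Centred on array medians, 10 rose and 3 fell. At an unadjusted p below 0.05 (limma) these 2 settings gave 17 and 18 of the 37, beside 33.6% and 40.9% of all genes. With every array kept in the limma fit 0 of the 37 were called, and 3 had an unadjusted p below 0.05, as did 10.3% of all genes. With the TK6 and MT1 arrays fitted alone 16 of the 37 were called. At an unadjusted p below 0.05 (limma) that fit gave 19, beside 43.7% of all genes. With 2 arrays against 2, arrays that lie apart are common: in TK6 all MNNG arrays lay above all untreated ones for 32.2% of all genes and below them for 35.8%, and for 19 and 9 of the 37.

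In the strand exchange group, 5 of 11 genes rose and 0 fell. RAD51C, which acts in strand exchange, had levels of 8.62 and 8.43 in the untreated TK6 arrays and 10.45 and 10.56 in the MNNG arrays. The MNNG arrays are both the higher ones, and the change of 1.98 ± 0.11 (limma, adjusted p = 1.32e-18) is a 3.95-fold rise. PALB2, the bridge between BRCA1 and BRCA2, stood at 7.38 and 7.34 untreated and at 8.92 and 8.99 with MNNG. This is a change of 1.59 ± 0.12 (adjusted p = 1.42e-14), or 3.02-fold. BRIP1, the helicase bound by BRCA1 and also known as FANCJ, went from 6.71 and 6.83 to 7.75 and 7.79, a change of 1.00 ± 0.11 (adjusted p = 2.25e-10). BLM, the helicase that dissolves recombination intermediates, rose by 0.55 ± 0.095 and BRCA1 by 0.52 ± 0.10. The other 6 genes of the group were not called, with changes from -0.31 for BARD1, the partner of BRCA1 in its ubiquitin ligase, to 0.67 for XRCC2, which also acts in strand exchange and whose untreated arrays lay far apart at 6.76 and 7.55.

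Checkpoint genes changed in both directions, 6 of 13 up and 2 down. ATR had levels of 8.74 and 8.51 untreated and 9.40 and 9.56 with MNNG (0.85 ± 0.13, adjusted p = 1.08e-06). TOPBP1, which switches ATR on at forks, went from 9.35 and 9.07 to 9.85 and 9.86 (0.65 ± 0.13, adjusted p = 7.79e-05). CLSPN, the adaptor that presents CHEK1 to ATR, went from 6.14 and 6.10 to 6.67 and 6.81 (0.62 ± 0.16, adjusted p = 0.00132). The rises of these genes exceed the distance between their duplicate arrays. The kinase WEE1, which restrains mitotic entry, rose by 0.47 ± 0.14. The 9-1-1 clamp, a ring of RAD9A, HUS1 and RAD1 that is loaded at damaged DNA, was split by the probe sets used. RAD9A rose by 0.44 ± 0.15 and RAD1 by 0.43 ± 0.10, while HUS1 fell from 6.70 and 6.60 to 6.09 and 6.14 (-0.53 ± 0.098, adjusted p = 1.9e-05). Another probe set of HUS1 rose by 0.30 ± 0.11, and the mean of its probe sets stood at -0.026. Other probe sets of RAD1 lay between -0.076 and 0.12. TLK1, a kinase of chromatin assembly, fell from 9.25 and 9.47 to 8.85 and 8.87 (-0.50 ± 0.13, adjusted p = 0.00148). The kinases downstream of the sensors were not called, at 0.32 ± 0.18 for CHEK1 and -0.032 ± 0.16 for CHEK2, nor was ATM at 0.096 ± 0.19.

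Among Fanconi genes, 3 of 7 rose and 1 fell. FANCI, a member of the pair that the core complex marks, had levels of 9.16 and 8.90 untreated and 9.68 and 9.87 with MNNG (0.74 ± 0.19, adjusted p = 0.00142). Its other probe sets stood at 0.099 ± 0.12 and -0.58 ± 0.29 in TK6 and were not called. FANCM, the translocase that anchors the core complex on DNA, went from 6.34 and 6.33 to 6.87 and 7.01 (0.61 ± 0.16, adjusted p = 0.00131), and FANCL, the ubiquitin ligase of that complex, rose by 0.53 ± 0.17. FANCF, an adaptor of the core complex, moved the other way, from 7.31 and 7.21 to 6.68 and 6.87 (-0.49 ± 0.089, adjusted p = 1.42e-05). In the break signalling group MDC1, the scaffold that reads marked H2AX, rose by 0.47 ± 0.12, and H2AX by 0.44 ± 0.16, although the lower treated array of H2AX (10.31) lay within its untreated arrays (10.32 and 10.11). RAD50, of the complex with MRE11 and NBN that senses broken ends, fell from 8.65 and 8.71 to 8.33 and 8.52 (-0.26 ± 0.074, adjusted p = 0.00451), though the mean of its probe sets stood at 0.041. MRE11 and NBN were not called by the probe sets used, at 0.029 ± 0.11 and -0.076 ± 0.16. With every probe set tested by itself, others of NBN were called lower (-0.33 ± 0.094 and -0.55 ± 0.13). The remaining ones of NBN were not called, and another of MRE11, at a mean level of 5.75, was called higher (0.44 ± 0.16).

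Single arrays or settings decided some of these TK6 calls. Without the arrays numbered replicate 2, the changes of FANCI (0.52, adjusted p = 0.147), CLSPN (0.52, adjusted p = 0.0841), FANCM (0.53, adjusted p = 0.0733) and TLK1 (-0.40, adjusted p = 0.0931) kept their direction but not their call. RAD50 lost its call without replicate 1 (-0.19, adjusted p = 0.171) and without the first MNNG array of TK6 (-0.16, adjusted p = 0.164). With values as deposited HUS1, FANCF and RAD50 were not called, and with median centring TLK1 and RAD50 were not. With the mean of all probe sets FANCI, FANCM, HUS1 and RAD50 were not. With the TK6 and MT1 arrays fitted alone by limma RAD50 (-0.26, adjusted p = 0.116) was not. RAD51C, PALB2, BRIP1, ATR and TOPBP1 kept their calls in all of these settings.

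**Figure D1:**
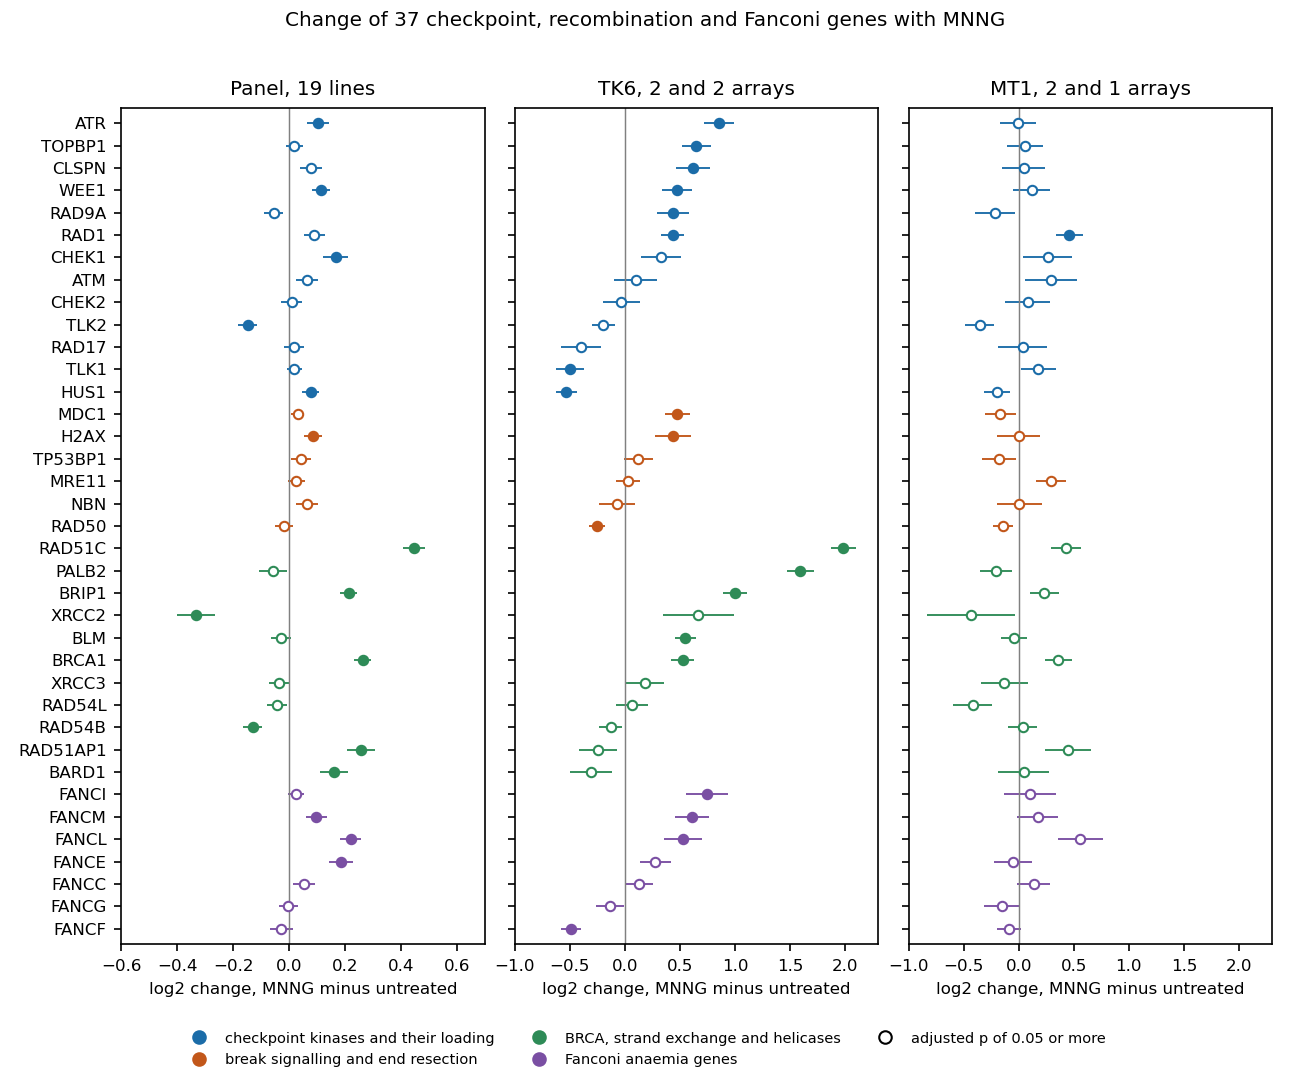
Log2 change with MNNG (x axis, MNNG minus untreated) of each of the 37 genes (y axis, grouped by role in colour) in the panel, TK6 and MT1, with bars of 1 standard error and filled points for an adjusted p below 0.05. The panel axis is narrower than those of TK6 and MT1. RAD51C at 1.98 and PALB2 at 1.59 lie far right in TK6, while in MT1 the single filled point is RAD1.

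Genes of the same pathways that are not among the 41 moved both ways in TK6, with 16 of 51 higher and 11 lower (55 listed). The largest changes called were those of PPM1D, the phosphatase that ends checkpoint signals (1.82 ± 0.17), the cell cycle phosphatase CDC25A (1.35 ± 0.13), the resolvase GEN1 (1.09 ± 0.12) and ABRAXAS1, a scaffold of a BRCA1 complex (-1.13 ± 0.14). Of 7 end joining genes measured, 1 rose, the ligase LIG4 at 1.18 ± 0.15, and 2 fell. Cell cycle genes moved with these results. Of 15 S phase genes 14 rose and 0 fell, with a median of 0.45, while of 16 G2 and mitosis genes 2 rose and 4 fell. The damage-response genes CDKN1A (2.95 ± 0.082), MDM2 (2.95 ± 0.15), TIGAR (2.48 ± 0.075) and GADD45A (1.60 ± 0.11) all rose. MGMT was not called (-0.040 ± 0.17) and lay near the bottom of the scale in the untreated arrays of both TK6 (5.21 and 5.19) and MT1 (5.21 and 5.33). Fewer cells in a phase and less RNA per cell cannot be told apart in these bulk samples, and the part of the cell cycle in the members' changes was not tested.

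In MT1, 1 of the 37 genes rose and 0 fell by limma, against 2.36% of all genes that rose and 1.21% that fell. At an unadjusted p below 0.05 these counts were 6 and 2, beside 10.1% and 5.18% of all genes. RAD1, the clamp subunit, had untreated levels of 10.56 and 10.47 and 10.97 in the MNNG array, a change of 0.46 ± 0.12 (limma, adjusted p = 0.0287) that is close in size to the 0.43 of TK6. That call is lost with values as deposited, with median centring, with every array kept, with the mean of all probe sets, without either untreated MT1 array, and with the TK6 and MT1 arrays fitted alone. Other genes with positive changes in MT1 did not pass: FANCL stood at 0.56 ± 0.21 (adjusted p = 0.142), RAD51AP1 at 0.45 ± 0.21 (adjusted p = 0.289) and RAD51C at 0.43 ± 0.13 (adjusted p = 0.0644). PALB2 had levels of 7.55 and 7.43 untreated and 7.28 with MNNG. With 1 treated array the standard errors in MT1 were larger than in TK6, and small changes may not have been detectable. Of the damage-response genes, TIGAR was called in MT1 (0.41 ± 0.092), and CDKN1A stood at 0.087 ± 0.10.

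The difference between the responses of TK6 and MT1 was tested directly. It was called for 8 genes with a higher change in TK6 and for 2 with a lower one, where 12.2% of all genes were called higher and 12.5% lower. PALB2 differed most, by 1.80 ± 0.19 (limma, adjusted p = 5.55e-10), from a rise in TK6 beside -0.21 ± 0.15 in MT1. RAD51C followed at 1.55 ± 0.17 (adjusted p = 2.73e-09), then ATR at 0.86 ± 0.21 (adjusted p = 0.00184), which stood at 9.24 and 9.08 in untreated MT1 and at 9.16 with MNNG. BRIP1 differed by 0.77 ± 0.17, RAD9A by 0.65 ± 0.23, MDC1 by 0.64 ± 0.18, TOPBP1 by 0.59 ± 0.21 and BLM by 0.59 ± 0.15. TLK1 (-0.68 ± 0.20) and FANCF (-0.41 ± 0.14) had a lower change in TK6 than in MT1. With the mean of all probe sets the difference of TLK1 was -0.18. Other TLK1 probe sets changed by -0.28, -1.39 and -0.61 in MT1, beside -0.68, -1.02 and -0.57 in TK6. Another, at a mean level of 5.99, stood at 0.24 in MT1 and -0.27 in TK6. In MT1, TLK1 stood at 9.25 and 9.49 untreated and 9.55 with MNNG, and FANCF at 7.64 and 7.51 untreated and 7.49 with MNNG. BRCA1 showed no called difference (0.16 ± 0.16), nor did FANCL (-0.035 ± 0.27) or RAD1 (-0.027 ± 0.16). With every array kept the difference of TLK1 turned to 1.24 and 0 of the 37 were called (2 at an unadjusted p below 0.05, beside 8.51% of all genes). PALB2, RAD51C, ATR and BRIP1 kept their calls when any replicate or array was left out, but with values as deposited ATR (0.83, adjusted p = 0.105) and BRIP1 (0.75, adjusted p = 0.266) did not. RAD9A lost its call without replicate 1, the second untreated MT1 array, the first untreated TK6 array or either TK6 MNNG array (0.52, adjusted p = 0.155 without the second untreated MT1 array). FANCF lost its call without replicate 1, the second untreated MT1 array, the first untreated TK6 array or the first TK6 MNNG array (-0.31, adjusted p = 0.156 for the last), and TLK1 without replicate 1, the first untreated MT1 array (-0.56, adjusted p = 0.0672) or the second untreated TK6 array. The count of 10 is 6 without the arrays numbered replicate 1 and 4 with the TK6 and MT1 arrays fitted alone. Values as deposited give 2 higher and 1 lower, with RAD9A and FANCF also lost, and median centring 7 higher and 0 lower, without RAD9A, TLK1 and FANCF.

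**Figure D2:**
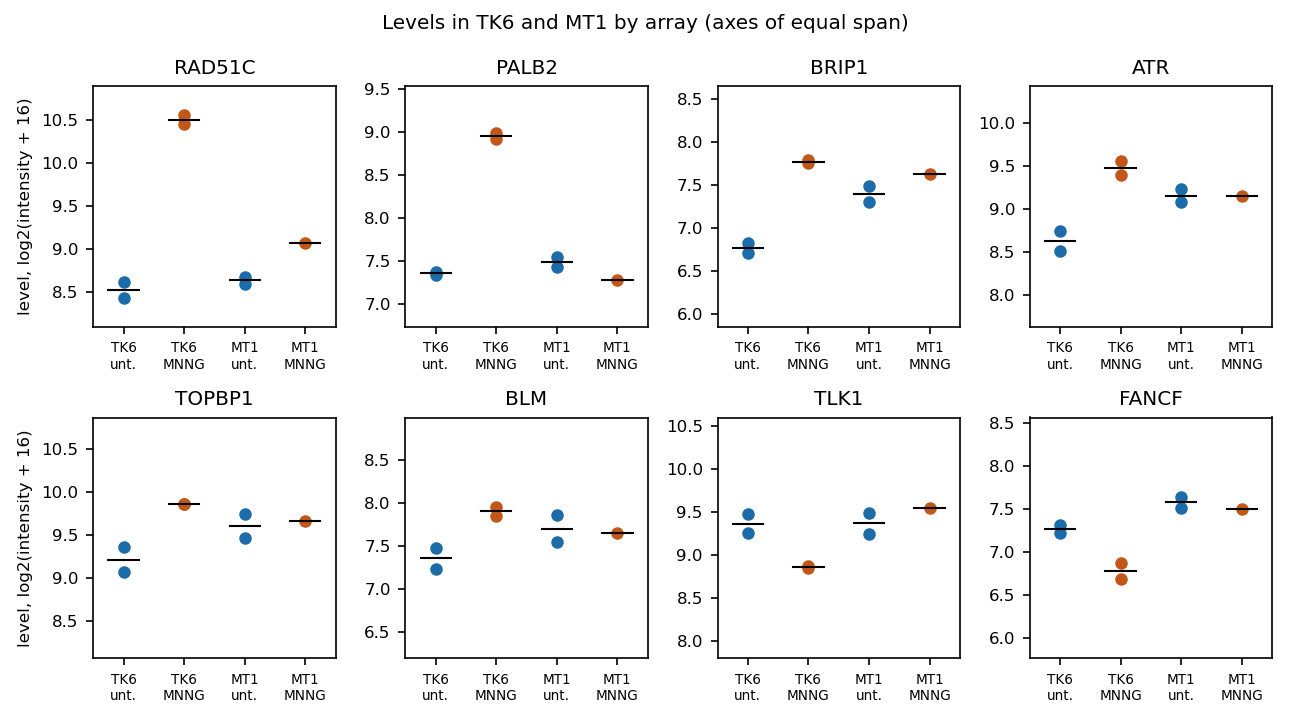
Level of 8 genes (y axis, log2 of intensity plus 16; all axes have the same span) in every kept array of TK6 and MT1, untreated in blue and with MNNG in orange, with black lines at the group means. In TK6 the treated arrays of RAD51C, PALB2, BRIP1, ATR, TOPBP1 and BLM lie above the untreated ones and those of TLK1 and FANCF below, while the MT1 array with MNNG stays near its untreated arrays for PALB2 and ATR.

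Before treatment the parent and its derivative already differed. Untreated MT1 was higher than untreated TK6 for 8 of the 37 genes and lower for 2, where 13.6% of all genes were higher and 11.7% lower. H2AX, the histone variant marked at breaks, had levels of 11.06 and 10.90 in MT1 and 10.32 and 10.11 in TK6 (0.76 ± 0.16, limma, adjusted p = 0.00026). NBN stood at 9.28 and 9.56 in MT1 and 8.62 and 8.97 in TK6 (0.63 ± 0.16, adjusted p = 0.00293). BRIP1 was at 7.49 and 7.31 against 6.71 and 6.83 (0.63 ± 0.11, adjusted p = 1.02e-05). In these 3 genes both MT1 arrays were the higher ones. CLSPN was higher in MT1 by 0.61 ± 0.16 and ATR by 0.53 ± 0.13, as were TOPBP1 (0.39), BLM (0.34) and FANCF (0.31). RAD54B, a helper of strand exchange, was lower in MT1 (-0.34 ± 0.11, adjusted p = 0.0153), and so was RAD50 (-0.20 ± 0.074, adjusted p = 0.0475). The comparison shares its untreated TK6 arrays with the response of TK6, so values of genes such as BRIP1, CLSPN and ATR in both are not independent. The count of 10 became 3 higher and 0 lower both as deposited and with median centring, 4 to 7 when a replicate or array was left out, 4 with the TK6 and MT1 arrays fitted alone, and 0 with every array kept (0 at an unadjusted p below 0.05, beside 4.89% of all genes). H2AX and BRIP1 kept their calls when a replicate or array was left out. With the TK6 and MT1 arrays fitted alone H2AX was not called (0.76, limma, adjusted p = 0.0591), nor were RAD54B and RAD50. As deposited CLSPN, ATR, RAD54B and RAD50 were not called, and with median centring NBN, ATR, RAD54B and RAD50 were not. At an unadjusted p below 0.05 (limma) these settings gave 5 and 8 of the 37, beside 19.4% and 24.7% of all genes. NBN lost its call without replicate 1, the second untreated MT1 array or the first untreated TK6 array (0.45, adjusted p = 0.108 for the last). RAD54B lost its call without replicate 1, either untreated MT1 array or the first untreated TK6 array (-0.21, adjusted p = 0.298 for the last), and RAD50 lost its call in each of these leave-outs and was at 0.14 by the mean of its probe sets. CLSPN was lost without replicate 2 (0.57, adjusted p = 0.0976), and ATR there and without the second untreated TK6 array (0.42, adjusted p = 0.0672). Of 15 S phase genes 6 were also higher in untreated MT1 and 0 lower, and the part of the cell cycle in these differences was not tested.

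Across the panel the changes were small. In 19 lines, 13 of the 37 genes rose and 3 fell, together 43.2%, where 28.7% of all genes rose and 13.8% fell. The share of members called is close to that of all genes, and their median change of 0.044 lies beside 0.037 for all genes. The counts changed with the scaling and the arrays used. With values as deposited 11 rose and 2 fell, and with median centring 1 rose and 3 fell. Without the arrays numbered replicate 1 the counts were 2 (RAD51C and BRCA1) and 0, and without replicate 2 they were 9 and 5. With every array kept they were 16 and 13. At an unadjusted p below 0.05 (limma) 31 of the 37 were found with every array kept, beside 72.4% of all genes. With median centring there were 8, beside 36.2%, and without replicate 1 there were 11, beside 24.7%.

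RAD51C led here as well. Its mean level by line ran over 7.82, 8.69 and 9.20 (lowest, median and highest of 19 lines) untreated and 8.20, 9.15 and 9.51 with MNNG. The ranges of the groups overlap, but within lines the level rose in 19 of 19 lines, by 0.11 to 0.77, with a mean of 0.45 ± 0.040 (limma, adjusted p = 2.25e-08), or 1.36-fold. It was the one gene still called as higher with median centring, and its change was -0.23 (adjusted p = 0.32) with every array kept. BRCA1 ran over 7.52, 7.88 and 8.11 untreated and 7.83, 8.16 and 8.42 with MNNG, and rose in 18 of 19 lines (0.26 ± 0.031, adjusted p = 6.54e-07). RAD51AP1, a cofactor of strand exchange, rose in 17 of 19 lines (0.26 ± 0.050, adjusted p = 0.000217), with changes from -0.21 to 0.73. BRIP1 rose in 17 of 19 (0.21 ± 0.032, adjusted p = 1.02e-05) and BARD1 in 15 of 19 (0.16 ± 0.050, adjusted p = 0.012). XRCC2 fell in 16 of 19 lines (-0.33 ± 0.069, adjusted p = 0.000415), from levels of 6.72, 7.01 and 7.29 to 6.36, 6.54 and 7.52. It was also the gene whose duplicates differed most, with an SD of 0.37. RAD54B fell in 16 of 19 (-0.13 ± 0.033, adjusted p = 0.00295). With every array kept RAD51AP1 stood at -0.84, XRCC2 at 0.16 and RAD54B at 0.18, all opposite in sign.

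Of the Fanconi genes in the panel, FANCL rose in 17 of 19 lines (0.22 ± 0.037, adjusted p = 4.62e-05), with levels of 8.96, 9.28 and 9.63 untreated and 9.14, 9.52 and 9.78 with MNNG. FANCE, which links the core complex to FANCD2, rose in 18 of 19 (0.19 ± 0.043, adjusted p = 0.00121), and was at -0.40 with every array kept. FANCM rose by 0.098 ± 0.037. Among checkpoint genes CHEK1 rose in 14 of 19 lines (0.17 ± 0.044, adjusted p = 0.00392), WEE1 by 0.11 ± 0.031, ATR by 0.10 ± 0.039 and HUS1 by 0.078 ± 0.030. TLK2, the relative of TLK1, fell in 17 of 19 lines (-0.15 ± 0.035, adjusted p = 0.00139). In the break signalling group H2AX was the 1 gene called of 6, at 0.087 ± 0.033. Without replicate 2 CHEK1 (0.069, adjusted p = 0.282) and BARD1 (0.092, adjusted p = 0.296) were not called, and with the mean of all probe sets BRCA1, BRIP1 and CHEK1 were not. Without replicate 1 RAD51AP1 (0.20, adjusted p = 0.135), FANCL (0.17, adjusted p = 0.115) and XRCC2 (-0.24, adjusted p = 0.172) were among those not called. Duplicates were averaged within a line here, so n is 19 lines.

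Of 51 other genes of the pathways 21 rose and 5 fell in the panel. The fork protection factor TIPIN (0.26 ± 0.052) and GEN1 (0.26 ± 0.042) rose most, and RIF1, which shields ends from resection, fell most (-0.75 ± 0.082). Of 15 S phase genes 4 rose and 3 fell, and of 16 G2 and mitosis genes 3 rose and 5 fell. The damage-response genes rose by 0.28 ± 0.085 (CDKN1A) to 0.48 ± 0.062 (TIGAR), and MGMT by 0.33 ± 0.062.

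The panel and TK6 share no arrays, but their arrays were normalised together. Standard errors of TK6 used a spread shared by all groups, those of the panel lines included. Of the 13 genes that rose in the panel 8 also rose in TK6 (8 of the 16 that rose in TK6): RAD51C, BRCA1, BRIP1, ATR, FANCL, FANCM, WEE1 and H2AX. Over all genes 35.8% of those that rose in the panel also rose in TK6, which is 47.6% of those that rose in TK6. The difference between members and all genes in this overlap was not tested. By the probe sets used, no gene was called as lower in both. Among the other probe sets, each tested by itself, some of RAD17, NBN, TLK1 and TLK2 were called lower in both. Those of RAD17 stood at -0.23 and -0.17 in the panel and at -0.58 and -0.49 in TK6. That of NBN stood at -0.67 in the panel and -0.55 in TK6, and that of TLK2 at -0.16 and -0.56. For TLK1 the values were -0.58 in the panel and -0.68 in TK6. HUS1, by the probe set used, rose in the panel and fell in TK6. PALB2, the second largest rise in TK6, stood at -0.057 ± 0.049 in the panel (adjusted p = 0.365) and was lower in 15 of 19 lines. The size of these differences between panel and TK6 was not tested.

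An F test in limma, run on the separate arrays of each line, asked whether panel lines differed in their response. RAD51C was the 1 gene called of 37 (F = 3.78, adjusted p = 0.014), where 6.75% of all genes were called. At an unadjusted p below 0.05 there were 6 of the 37, beside 17.9% of all genes. Values as deposited or median centring lost the call of RAD51C. Its change was largest in line 23 at 0.77, line 20 at 0.70 and line 4 at 0.65, and smallest in line 14 at 0.11. PALB2 was not called (adjusted p = 0.0909), with changes from -0.27 to 0.60. It was higher with MNNG in 4 lines: line 4 (0.60), line 17 (0.37), line 14 (0.15) and line 9 (0.080). Line 4 was singled out after its values were seen. It had the lowest untreated MGMT level of the 19 lines (5.12, median 7.56) and the largest changes of CDKN1A (1.29) and MDM2 (1.93). XRCC2 was higher with MNNG in lines 4 (0.47), 17 (0.22) and 14 (0.099), and lower in the other 16. Over the 19 lines the change of RAD51C had a Pearson r of 0.16 with that of CDKN1A, and PALB2 one of 0.42 that became 0.11 without the 2 lines farthest from the median CDKN1A change. These lines share the arrays' normalisation, and the correlations are given as a description.

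**Figure D3:**
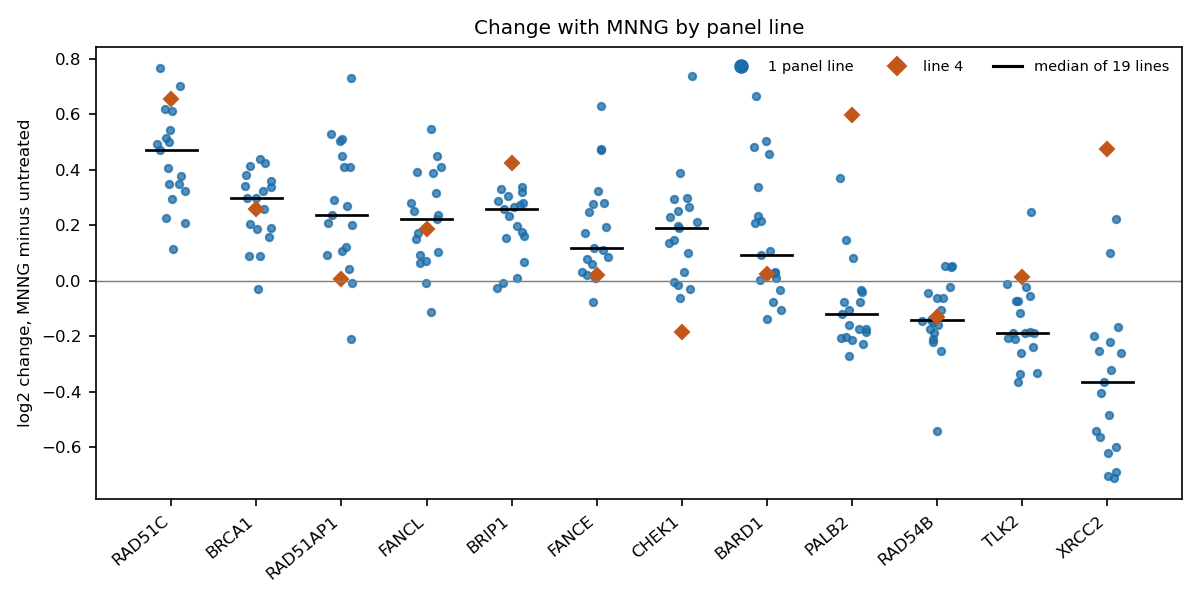
Log2 change with MNNG (y axis) of 12 genes in each of the 19 panel lines, with a black line at the median and line 4 as an orange diamond. All points of RAD51C lie above 0, between 0.11 and 0.77, those of PALB2 lie below 0 in 15 lines with line 4 at 0.60, and those of XRCC2 lie below 0 in 16 lines.

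Probe sets of the same gene did not always move together, which bears on several values above. The 37 genes had 86 probe sets above the filter, and 24 genes had more than 1. Testing every probe set by itself, an alternative added after the values were seen, called 22 of the 86 higher and 21 lower in the panel (22.7% and 19.2% of all probe sets), and 25 higher and 13 lower in TK6 (17.9% and 18.3%). Both probe sets of RAD51C rose: the second probe set rose by 0.33 ± 0.046 in 19 of 19 lines and by 1.15 ± 0.11 in TK6. Both probe sets of BRIP1 rose in TK6 (the second by 0.77 ± 0.15), as did those of BRCA1 (the second by 0.43 ± 0.14), and both of FANCF fell (the second at -0.35 ± 0.12). ATR had a second probe set that rose in TK6 by 0.89 ± 0.14 and another, near the bottom of the scale, at -0.26 ± 0.098. PALB2 had 1 probe set. In the panel, BRCA1, H2AX and WEE1 had probe sets called in opposite directions. A second probe set of H2AX fell in 19 of 19 lines (-0.64 ± 0.061), that of BRCA1 changed by -0.15 ± 0.040 and that of WEE1 by -0.33 ± 0.039. In TK6 the same held for ATR, BARD1 and HUS1, whose second probe set rose by 0.30 ± 0.11. FANCI, with 0.027 ± 0.028 in the panel by the probe set used, had others at -0.35 ± 0.045 and -0.47 ± 0.069. NBN had one at -0.67 ± 0.058, and 3 of TLK1 fell by more than 0.5 where the one used stood at 0.019 ± 0.027. Averaging all probe sets of a gene gave 7 higher and 9 lower in the panel. At an unadjusted p below 0.05 (limma) there were 18 of the 37, beside 48.6% of all genes. RAD1 had 4 others in TK6 between -0.076 and 0.12. Which transcripts each probe set reads was not analysed here.

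Untreated levels differed between the 24 panel lines for 29 of the 37 genes by limma's F test, against 64.3% of all genes. All 6 break signalling genes and 12 of 13 checkpoint genes were called, and 2 of 7 Fanconi genes, FANCF and FANCG. BLM had the largest F (29.8, adjusted p = 4.84e-13), with a lowest, median and highest line of 7.70, 8.09 and 9.07, a range of 2.58-fold. Its level lay apart in 4 lines, all above 8.5, where the others lay at or below 8.21. RAD51C was next (18.5) at 7.82, 8.71 and 9.20, then HUS1 (11.3) at 6.51, 7.01 and 7.55 and RAD54B (10.9) at 7.12, 7.71 and 8.45. RAD51AP1 ranged over 7.83, 8.58 and 9.18 and TLK1 over 9.44, 9.90 and 10.66, while RAD50 (10.5) and FANCF (9.87) had ranges of 0.62 and 0.84 log2 units. XRCC2 had an F of 0.438. With values as deposited 10 of the 37 were called, and HUS1 (adjusted p = 0.407), RAD50 (adjusted p = 0.144) and FANCF (adjusted p = 0.227) were not among them. In that setting 14 of the 37 had an unadjusted p below 0.05 by the F test, beside 49.6% of all genes.

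**Figure D4:**
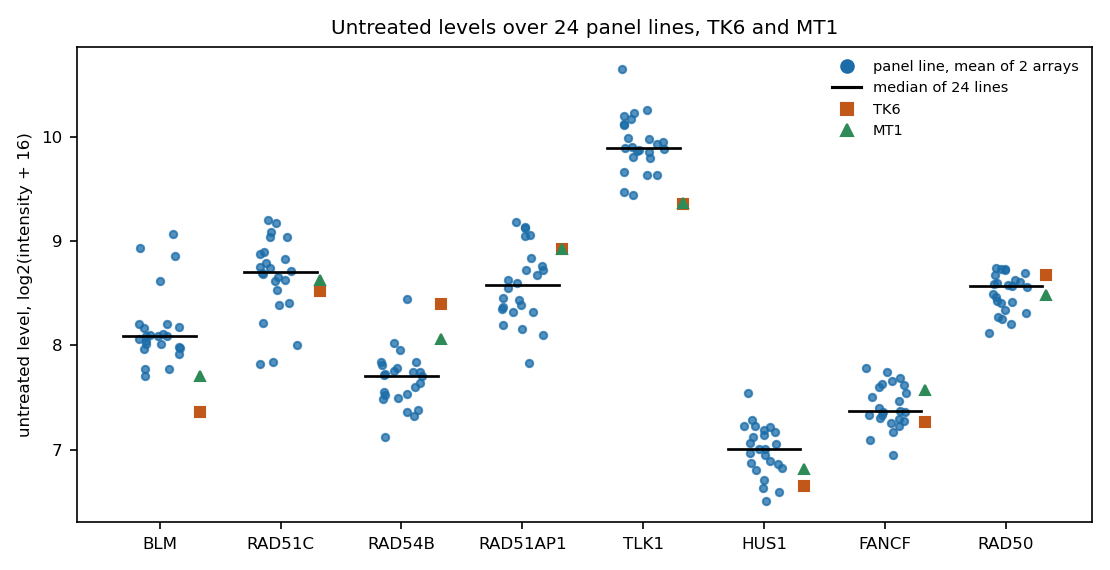
Untreated level (y axis, log2 of intensity plus 16) of the 8 genes with the largest F over the 24 panel lines. Each blue point is the mean of 2 arrays of a line, black lines are medians, and squares and triangles are TK6 and MT1. BLM has 4 lines above 8.5, and RAD51C spreads from 7.82 to 9.20.

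Some of these genes followed the S phase genes across untreated lines. Over 24 lines, the Pearson r with the mean of 15 S phase genes was 0.88 for CLSPN, 0.86 for H2AX, 0.82 for CHEK1, 0.82 for BRCA1 and 0.80 for FANCF. ATM lay at the other end (-0.64), followed by TLK2 (-0.39) and RAD17 (-0.39), the loader of the 9-1-1 clamp. FANCG was closer to the mean of 16 G2 and mitosis genes (0.85) than to that of S phase (0.76). RAD51C (0.31) and PALB2 (0.43) were weaker. Among the 666 pairs of members the median r was 0.15, 87 were above 0.5, and the highest was 0.80 for RAD54L and FANCG. These values describe 24 lines whose arrays share 1 normalisation, and the S phase and G2 means themselves had an r of 0.64.

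**Figure D5:**
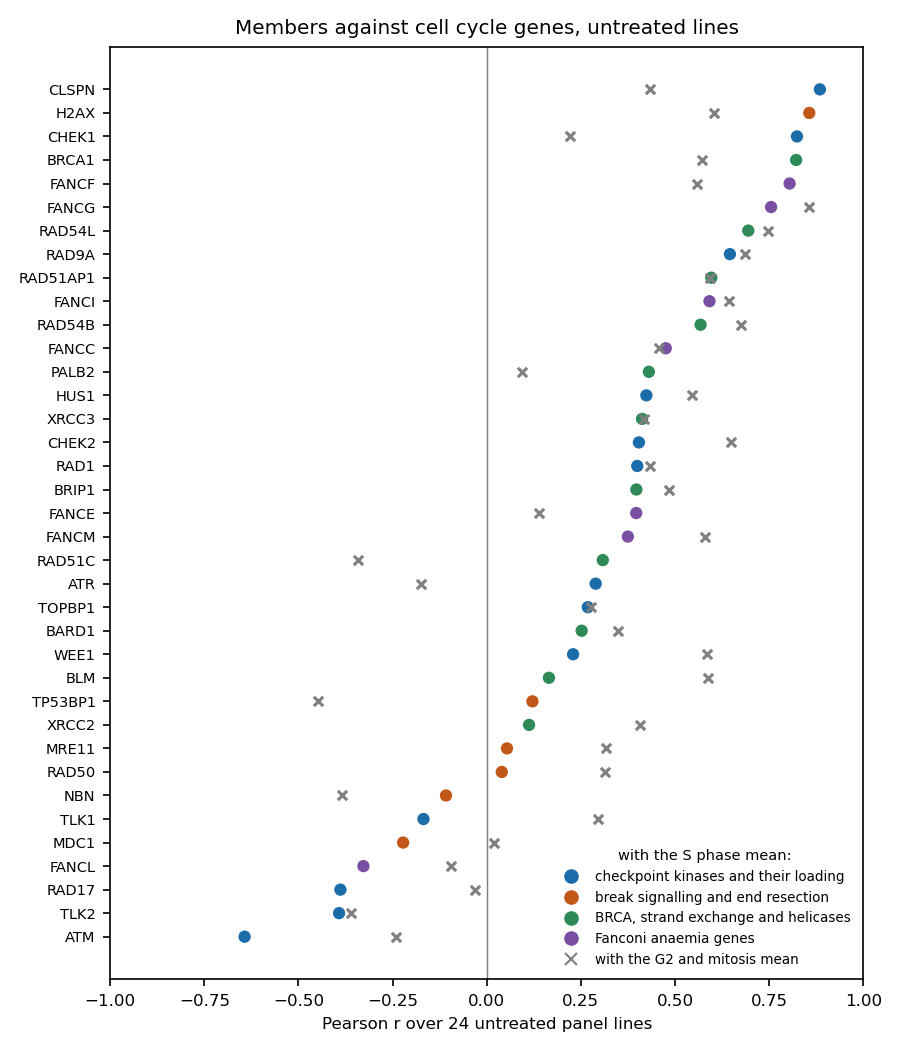
Pearson r (x axis) of each gene's untreated level over 24 panel lines with the mean of 15 S phase genes (dots, coloured by role) and with the mean of 16 G2 and mitosis genes (crosses). CLSPN, H2AX, CHEK1 and BRCA1 lie at the top and ATM at the bottom.

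Promoters of the genes that rose most in TK6 (RAD51C, PALB2) and of those that followed the S phase genes most closely (CLSPN, H2AX) are shown because these members carry the TK6 and the S phase results. They run from 250 bases before the annotated start through the first 10 bases from it, 5′ to 3′ on the strand of the gene, in RefSeq's GRCh38.p14: chr17:58692323-58692582 for RAD51C on the plus strand, and chr16:23641301-23641560 for PALB2, chr1:35769969-35770228 for CLSPN and chr11:119095456-119095715 for H2AX on the minus strand. Capitals mark matches, on either strand, to CCAAT, to the E2F words TTTCGCGC, TTTGGCGC, TTTCCCGC and TTTGCCGC, or to the CHR words TTTGAA and TTCGAA. E2F sites and CHR elements are known from genes of S phase and of G2, and CCAAT boxes from both.
RAD51C: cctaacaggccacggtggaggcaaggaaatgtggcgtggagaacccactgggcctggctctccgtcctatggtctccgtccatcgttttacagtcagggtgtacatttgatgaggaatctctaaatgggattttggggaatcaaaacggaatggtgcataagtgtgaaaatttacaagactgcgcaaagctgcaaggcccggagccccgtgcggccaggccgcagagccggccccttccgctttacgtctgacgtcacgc
PALB2: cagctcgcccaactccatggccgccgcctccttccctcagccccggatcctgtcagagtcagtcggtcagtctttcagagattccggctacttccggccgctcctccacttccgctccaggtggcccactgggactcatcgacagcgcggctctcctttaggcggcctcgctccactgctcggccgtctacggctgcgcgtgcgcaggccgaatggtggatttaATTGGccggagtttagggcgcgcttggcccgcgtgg
CLSPN: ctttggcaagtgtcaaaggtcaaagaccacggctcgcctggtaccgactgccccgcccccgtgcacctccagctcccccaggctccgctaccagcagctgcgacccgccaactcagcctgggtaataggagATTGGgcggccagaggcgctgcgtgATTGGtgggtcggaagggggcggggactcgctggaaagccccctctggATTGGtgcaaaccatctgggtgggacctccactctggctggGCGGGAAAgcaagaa
H2AX: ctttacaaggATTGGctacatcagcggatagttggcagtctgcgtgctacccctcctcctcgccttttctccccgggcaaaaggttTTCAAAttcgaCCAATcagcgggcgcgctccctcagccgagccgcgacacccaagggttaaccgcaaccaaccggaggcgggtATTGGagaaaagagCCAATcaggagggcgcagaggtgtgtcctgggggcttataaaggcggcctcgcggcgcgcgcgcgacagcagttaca

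The RAD51C window held none of these words and that of PALB2 a single CCAAT. CLSPN held an E2F word (TTTCCCGC, on the opposite strand) at its start and 3 CCAAT matches, and H2AX 4 CCAAT matches and a CHR word. In full windows of 300 bases, an E2F word was found in 6 of the 50 windows of members (12.0%, in 6 of the 35 members that had a window) and in 3.3% of 35116 windows of all genes. CCAAT was found in 54.0% against 34.6%, and a CHR word in 14.0% against 16.4%. Windows of genes with several starts overlap, and a match is a description of the letters only.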

How the data were processed

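Transcripts of 26 lymphoblastoid lines were measured on 52 untreated arrays and 52 with MNNG. The deposited values are linear probe set intensities that the authors computed with PLIER, per the submitters' processing notes, over 54675 probe sets, with a lowest value of 16 and a highest of 65535. No counts exist, and the number of arrays limits the precision. Array median intensity ran from 16.0 to 64.4.

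Samples were grouped by line and treatment from the labels. From the deposited intensities, log2(intensity + 16) was taken, 22 arrays were left out by the cre rule, and the 82 kept arrays were quantile normalised. Symbols came from the platform annotation, in which 41097 probe sets had 1 symbol, 1801 had several and 11777 had none. Each gene was represented by its brightest probe set, by the mean over kept arrays, and the lowest 30% of genes were left out. Tests used limma 3.58.1 in R 4.3.3 with a trend prior and Benjamini-Hochberg adjustment. In the panel, each line's duplicates were averaged and lines entered as blocks. TK6, MT1 and their difference came from a model of all group means. Line differences were tested by F tests. The procedure was also run on simulated data with independent noise in each array. That run cannot show how a shift shared between arrays acts on the calls. Figures and promoters used Python 3.11.15, matplotlib 3.10.9 and pandas 2.3.3.

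All members could be named. Values by array or line were given for up to 8 called genes each way in the panel, TK6 and MT1, up to 5 each way between TK6 and MT1, the 8 with the largest F over untreated lines, and up to 5 for response differences. Of other lists, up to 4 called genes were named in a comparison, with the damage controls. Genes shown beyond these limits, among them MRE11, XRCC2 in TK6 and single probe sets, were chosen after their values were seen. The members and lists were chosen with earlier results of these data known. Alternatives were other scalings, filters, pseudocounts, probe set rules, blocks, every array kept, and leaving out lines and replicates.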

Additional observations from a re-analysis of the deposited data

Results flagged for a closer look

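The difference between the responses of TK6 and MT1, tested as an interaction in limma, passed an adjusted p of 0.05 for 10 of the 37 genes (27.0%, beside 24.7% of all genes), with 1 MNNG array of MT1. The share is close to that of all genes. A higher change in TK6 was found for PALB2 (1.80 ± 0.19), RAD51C (1.55 ± 0.17), ATR (0.86 ± 0.21), BRIP1 (0.77 ± 0.17), RAD9A (0.65 ± 0.23), MDC1 (0.64 ± 0.18), TOPBP1 (0.59 ± 0.21) and BLM (0.59 ± 0.15). TLK1 (-0.68 ± 0.20) and FANCF (-0.41 ± 0.14) had a lower change in TK6, though with the mean of all probe sets the TLK1 difference was -0.18. RAD9A, TLK1 and FANCF lost their calls with median centring and when some single arrays were left out, and ATR, BRIP1, RAD9A and FANCF with values as deposited. Of 15 S phase genes, 9 also had a higher change in TK6 and 0 a lower one, and their part in these values was not tested.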

How the results depend on the processing

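Counts are of the 37 genes called, and the cause of each shift was not tested. The cre rule left out no TK6 array and no untreated array. With every array kept the TK6 changes of RAD51C, PALB2 and RAD50 were 2.03, 1.59 and -0.26, beside 1.98, 1.59 and -0.26. H2AX in untreated MT1 minus TK6 was 0.77, beside 0.76. The shared estimate of the spread then took in the 22 other arrays. The panel count of 16 became 29 with every array kept, 4 with median centring and 7 without the line block. It became 2 to 17 when a line or replicate was left out. At an unadjusted p below 0.05 (limma) the panel had 17 of the 37, beside 49.5% of all genes. This became 31 beside 72.4% with every array kept, 8 beside 36.2% with median centring and 11 beside 27.7% without the line block. The TK6 count of 20 became 0 with every array kept (3 at an unadjusted p below 0.05), 13 with median centring and 14 to 18 in leave-outs. At an unadjusted p below 0.05 (limma) these leave-outs gave 18 to 22, beside 39.0% to 42.6% of all genes. The MT1 count of 1 became 0 with every array kept (3 unadjusted), as deposited (6), with median centring (6) and with TK6 and MT1 alone (6). It became 2 with the lowest 50% of genes left out and with mean probe sets, and 0 to 1 in leave-outs; leaving out replicate 2 gave no MT1 value. The TK6 minus MT1 count of 10 became 0 with every array kept (2 unadjusted), 3 as deposited, 4 with these lines alone and 6 to 10 in leave-outs. The untreated MT1 minus TK6 count of 10 became 0 with every array kept (0 unadjusted), 3 as deposited, 3 with median centring, 4 alone and 4 to 7 in leave-outs. The spread count of 29 became 10 as deposited and 26 to 30 in leave-outs. Unadjusted, the latter gave 28 to 30, beside 65.6% to 68.2% of all genes. The response difference count of 1 became 0 with every array kept (2 unadjusted) and as deposited (0), 3 with median centring, with the lowest 50% left out and with mean probe sets, 2 without the trend and 1 to 3 in leave-outs. With every array kept the panel changes of RAD51C (-0.23), RAD51AP1 (-0.84), FANCE (-0.40), XRCC2 (0.16) and RAD54B (0.18), and TLK1 in TK6 minus MT1 (1.24), turned sign. With mean probe sets RAD50 did so in TK6 (0.041) and in untreated MT1 minus TK6 (0.14). The TK6 calls of RAD51C, PALB2, BRIP1 and ATR held in every alternative run but every array kept. Testing every probe set, added after seeing the data, left 16 and 20 of the probe sets used called in the panel and TK6.

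Within lines, replicate numbers did not pair untreated with MNNG arrays: deviations of same-numbered arrays correlated above 0.1 in 2 of 9 lines (-0.62 to 0.14). This check cannot show a shift that same-numbered arrays of different lines share, and such a shift was not tested. Untreated XRCC2 stood at 6.76 (replicate 1) and 7.55 (replicate 2) in TK6 and at 6.84 and 7.55 in MT1. Untreated TOPBP1 stood at 9.35 and 9.07 in TK6 and at 9.75 and 9.46 in MT1. RAD1 differed in opposite directions, at 10.09 and 10.45 in TK6 and at 10.56 and 10.47 in MT1. The kept MNNG array of MT1 is numbered replicate 2 and was set against the mean of both untreated arrays. With the replicate block the counts were 12 in the panel, 21 in TK6, 2 in MT1, 12 for TK6 minus MT1, 10 for untreated MT1 minus TK6, 30 for the spread and 3 for response differences.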
